A study of Mus musculus with 8 samples.

Results

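The PYHIN genes of the mouse Ifi200 cluster and Aim2 were followed in B16F10 cells, a mouse melanoma line derived from C57BL/6 mice. The 6 genes, Ifi204, Ifi203, Mndal, Pyhin1, Aim2 and Ifi202b, were picked by name from the 45556 named genes of a deposited table of estimated read counts. All 6 have a row, and 3 of them (Ifi204, Ifi203 and Mndal) passed the filter on low counts that left 13500 genes for testing. The other 7 family genes with a row, Mnda, Ifi205, AI607873, Gm4955, Pydc3, Pydc4 and Gm16340, all passed it and are used for comparison.

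Bulk RNA sequencing covered 4 groups of 2 libraries: shDRG2 cells given recombinant mouse IFN-γ (interferon-gamma, 5 ng/ml, 24 hours), shDRG2 cells without it, pLKO cells given the same IFN-γ, and pLKO cells without it. shDRG2 cells carry a short hairpin against Drg2, which encodes a GTP-binding protein, and pLKO cells carry the hairpin vector alone. Each construct is represented by 1 line, so a difference between shDRG2 and pLKO is one between these lines, and the hairpin's effect on Drg2 cannot be told apart from any other effect of it. Whether the libraries of a group came from separate cultures is not given in the labels, so p-values measure only the spread between these samples.

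Library totals ran from 25422758 to 36654519 counts. Levels are given in CPM, read counts scaled to a common library size, and 1 CPM stood for 25.8 to 36.6 reads. Drg2 lay between 6.46 and 9.34 CPM in the 4 shDRG2 libraries, against 64.3 to 76.3 CPM in the 4 pLKO libraries. The 9 melanocyte markers, among them Pmel, Tyr and Mlana, summed to 9721 to 15239 CPM per library, and none was at 0. PYHIN genes are best known from myeloid and lymphoid cells. The 12 myeloid markers summed to 0.504 to 0.833 CPM in shDRG2 and 0.886 to 1.45 CPM in pLKO libraries, with 6 of the 12 at 0 in every library. The 9 lymphoid markers summed to 0.194 to 0.400 and 0.153 to 0.274 CPM, with 5 of the 9 at 0 in every library.

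PYHIN proteins combine an N-terminal pyrin domain, which binds other pyrin domains, with C-terminal HIN domains, which bind DNA. The mouse genes lie side by side on chromosome 1, are induced by interferons, and are best known for sensing DNA. AIM2 binds DNA in the cytosol and recruits the adaptor ASC and caspase-1 into an inflammasome, IFI204 is a DNA sensor that signals through STING, and p202, the product of Ifi202b, lacks a pyrin domain and inhibits AIM2.

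The 13 family genes with a row spanned 681 kb of chromosome 1 in the GENCODE M21 annotation (GRCm38), from Aim2 to Ifi205. Aim2 (ENSMUSG00000037860.15) lies at 173350879 to 173466040 on the plus strand and Pyhin1 (ENSMUSG00000043263.13, now named Ifi209) at 173630917 to 173647928 on the plus strand. Ifi204 (ENSMUSG00000073489.6) lies at 173747293 to 173766943, Mndal (ENSMUSG00000090272.8) at 173849126 to 173942491, Ifi203 (ENSMUSG00000039997.16) at 173920407 to 173942672 and Ifi202b (ENSMUSG00000026535.9) at 173962568 to 173982744, all on the minus strand. The annotated extents of Mndal and Ifi203 overlap, and 37 exonic bases belong to both.

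The sequences before the starts of the members are shown for the letters of motifs known from interferon-induced genes. They come from RefSeq windows (GRCm38.p6) of 250 bases before to 50 bases after each gene's RefSeq start, and what is printed lies before that start, 5′ to 3′ on the gene's strand. It stops short of exonic UTR where GENCODE places more than 30 bases of it there. It need not lie outside the GENCODE extents given above. The Ifi203 stretch lies partly inside the extent of Ifi203, with its ISRE letters, and the Aim2 stretch lies wholly inside that of Aim2. Capitals mark a match to the letters searched, on either strand. These were GAAANNGAAA for the interferon-stimulated response element (ISRE), which binds interferon regulatory factors, and TTCNNNGAA for the gamma-activated site (GAS), a motif known from genes induced by IFN-γ. No match of one overlapped a match of the other in these windows. Ifi203 (chr1:173942493-173942742, minus strand) and Mndal each held ISRE letters, beginning 35 and 36 bases before the start. Those of Mndal lie within the 118 bases before its RefSeq start that GENCODE places in exonic UTR. The Mndal window is therefore not printed here. Ifi203 and Mndal both have another RefSeq start: its window held no match in Ifi203, and in Mndal it held TTTCTCTTTC, the ISRE letters read on the other strand.
Ifi203: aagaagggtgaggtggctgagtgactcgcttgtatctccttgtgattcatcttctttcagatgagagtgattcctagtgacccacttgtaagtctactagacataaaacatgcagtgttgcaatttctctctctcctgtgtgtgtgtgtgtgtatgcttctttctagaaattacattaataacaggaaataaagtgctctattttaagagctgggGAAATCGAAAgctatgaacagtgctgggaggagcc
Pyhin1 (chr1:173630609-173630858, plus strand) and Aim2 (chr1:173420354-173420570, plus strand) held neither motif, and Ifi202b (chr1:173982845-173983094, minus strand) held GAS letters at position -148 relative to the start.
Pyhin1: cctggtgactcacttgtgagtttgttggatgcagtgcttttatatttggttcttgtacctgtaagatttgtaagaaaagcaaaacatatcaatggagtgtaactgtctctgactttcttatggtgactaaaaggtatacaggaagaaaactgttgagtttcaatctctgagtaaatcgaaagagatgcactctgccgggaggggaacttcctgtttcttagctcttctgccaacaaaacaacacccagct
Aim2: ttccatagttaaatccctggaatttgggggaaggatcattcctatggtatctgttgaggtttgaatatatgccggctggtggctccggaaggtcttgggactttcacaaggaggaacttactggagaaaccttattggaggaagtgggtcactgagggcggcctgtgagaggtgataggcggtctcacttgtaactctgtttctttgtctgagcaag
Ifi202b: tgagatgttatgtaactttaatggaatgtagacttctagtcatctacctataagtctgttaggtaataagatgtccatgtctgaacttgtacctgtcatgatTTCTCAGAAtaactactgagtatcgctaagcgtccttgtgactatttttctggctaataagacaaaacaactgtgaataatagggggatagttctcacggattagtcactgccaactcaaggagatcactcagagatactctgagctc

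No RefSeq window was found for Ifi204. Over the family, 12 genes had a window, and 9 of the 12 held the ISRE letters, which stood in 3.44% of all 32851 mouse windows. The GAS letters stood in 8.30% of all windows and, among these genes, in Ifi202b alone. Of the 9 genes with ISRE letters, 8 have a row in the table, and those 8 passed the filter on low counts, while the 3 without the letters, Pyhin1, Aim2 and Ifi202b, did not. Of the 8, 6 passed only through their level after IFN-γ (Ifi203 and Pydc4 also passed in pLKO cells without it) and the 3 were not tested, so this is a description and does not link the letters to the response. The stretches around the letters of Ifi203 and Mndal are identical over the 30 bases shown, that of Mndal lying in exonic UTR by GENCODE. They are given here with those of 3 relatives (listed in RefSeq as Ifi211, Ifi207 and Ifi206) and the closest stretch of Pyhin1, which lies on the plus strand, the others being on the minus strand. Capitals mark the ISRE letters and, in Pyhin1, the run nearest to them.
Ifi203 (chr1:173942508-173942537): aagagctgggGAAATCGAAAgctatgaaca
Mndal (chr1:173880204-173880233): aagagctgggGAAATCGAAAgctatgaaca
Mnda (chr1:173913064-173913093): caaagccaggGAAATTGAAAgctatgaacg
AI607873 (chr1:173741831-173741860): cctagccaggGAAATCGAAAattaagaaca
Gm4955 (chr1:173491339-173491368): tgtctctgagGAAATCGAAAgctatgaacc
Pyhin1 (chr1:173630770-173630799): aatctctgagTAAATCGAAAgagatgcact
The run GAAATCGAAA stood in the windows of 7 family genes and in 16 of all windows, or 0.0487%; it was chosen after the sequences were seen. The nearest run in Pyhin1 differs from it by G1T, counted from 1 at the 5′ end of the run, and begins 79 bases before the start. Of all windows, 1.38% hold a run within 1 base of it. The nearest runs in Aim2 and Ifi202b differ at 3 of their bases. These are matches of letters only and say nothing of binding.

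IFN-γ took Ifi204, Ifi203 and Mndal, all at or under 0.580 CPM without it, to 69.5 CPM or more in every library of both lines. Pyhin1 reached at most 0.213 CPM, Aim2 stayed at 0.0741 CPM or less, and Ifi202b had no read in any of the 8 libraries. Between shDRG2 and pLKO cells, none of the 3 tested members passed the threshold with or without IFN-γ. The plot of the 6 members by library shows this division into 3 responding genes and 3 near 0.

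**Figure D1:**
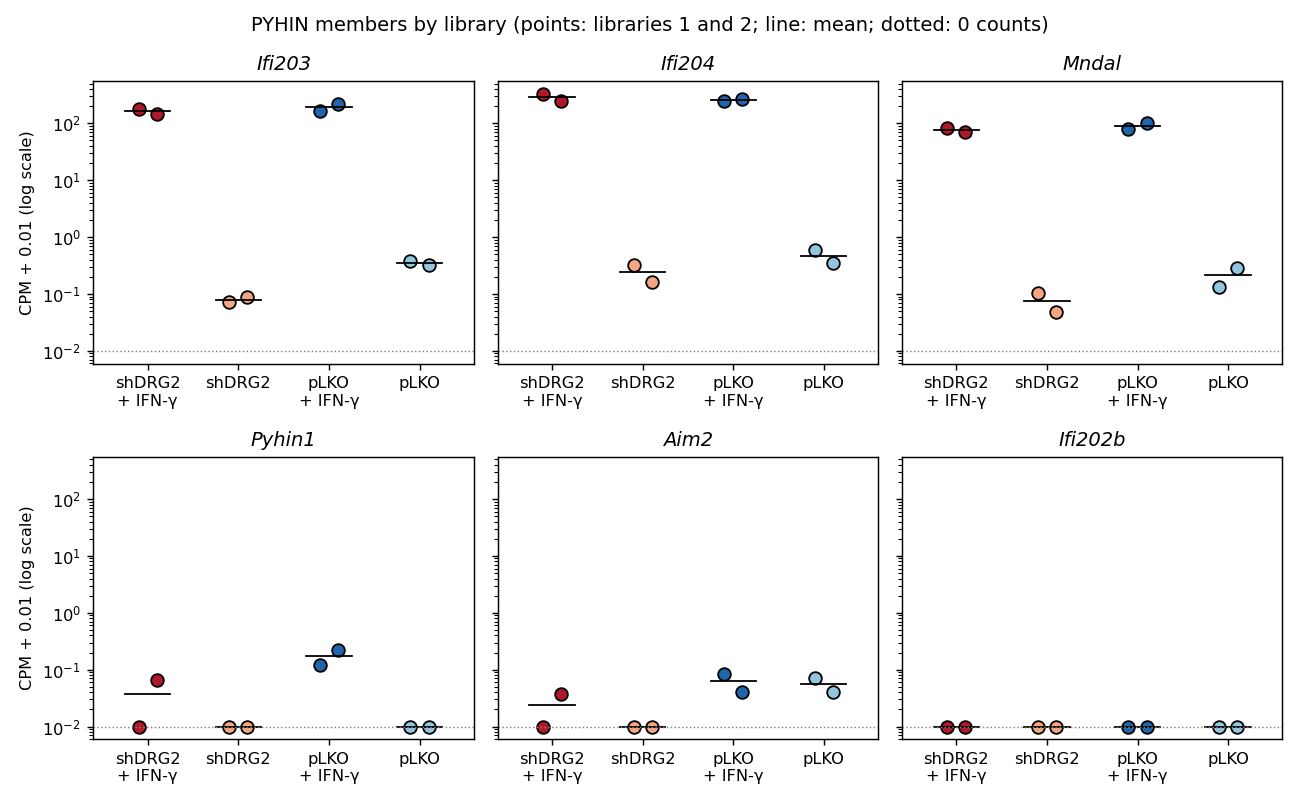
Level of each member in the 8 libraries, in CPM plus 0.01 on a log axis, with 1 point per library, a line at the group mean and a dotted line at 0 counts. Ifi203, Ifi204 and Mndal lie at 69.5 CPM or more in all 4 IFN-γ libraries and at 0.580 CPM or less without IFN-γ, while Pyhin1, Aim2 and Ifi202b lie at 0.213 CPM or less throughout.

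Ifi204, the DNA sensor held to be the mouse counterpart of human IFI16, had 329 and 249 CPM in shDRG2 cells with IFN-γ, against 0.311 and 0.155 CPM in shDRG2 cells without it. In pLKO cells it had 250 and 273 CPM with IFN-γ, against 0.580 and 0.344 CPM without it. The libraries with and without IFN-γ lay far apart in both lines, and the ranges of the 2 lines with IFN-γ overlapped. In shDRG2 cells the rise was 1177-fold, or 10.20 ± 0.251 in log2 units (± SE), with an adjusted p of 5.47e-10 in edgeR's quasi-likelihood test. In pLKO cells it was 559-fold, or 9.13 ± 0.229, with an adjusted p of 6.67e-10.

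Ifi203, a nuclear member with pyrin and HIN domains, had 180.2 and 145 CPM in shDRG2 cells with IFN-γ, against 0.0622 and 0.0775 CPM without it. The pLKO libraries had 164 and 221 CPM of Ifi203 with IFN-γ, against 0.367 and 0.313 CPM without it. Again no library with IFN-γ came near one without it, and shDRG2 cells without IFN-γ were the lowest group. The rise was 2229-fold in shDRG2 cells (11.12 ± 0.307, adjusted p = 1.33e-09) and 559.9-fold in pLKO cells (9.13 ± 0.247, adjusted p = 1.13e-09). The unstimulated shDRG2 libraries held 4 counts of Ifi203 together, and the ratio of summed counts, 2335, has a 95% counting interval of 912 to 8570.0.

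Mndal, named for its likeness to the myeloid cell nuclear differentiation antigen, had 82.6 and 69.5 CPM in shDRG2 cells with IFN-γ, against 0.0933 and 0.0387 CPM without it. The pLKO libraries had 78.9 and 102 CPM with IFN-γ, against 0.122 and 0.281 CPM without it. The 2 lines overlapped with IFN-γ and did not overlap without it. Mndal rose 1041-fold in shDRG2 cells (10.02 ± 0.305, adjusted p = 2.91e-09) and 442-fold in pLKO cells (8.79 ± 0.258, adjusted p = 2.26e-09).

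All 3 tested members were thus called higher after IFN-γ in both lines, where 16.2% of all genes were called higher in shDRG2 cells and 15.4% in pLKO cells (edgeR quasi-likelihood test, Benjamini-Hochberg adjusted). Mndal passed the filter only through its level with IFN-γ, while Ifi203 and Ifi204 also passed through the 2 pLKO libraries without it, so the count of calls is given as a description. Their median log2 fold change was 10.20 in shDRG2 cells and 9.13 in pLKO cells, beside medians over all genes of 0.0033 and 0.0062. Ranked by log2 fold change among the 13500 genes, Ifi203, Ifi204 and Mndal stood at places 32, 53 and 57 in shDRG2 cells and at places 57, 58 and 61 in pLKO cells. Because baselines were a few reads, single libraries moved the folds. Without the first unstimulated shDRG2 library the log2 fold change in shDRG2 cells was 10.83 for Ifi204 and 10.79 for Mndal, and without the second unstimulated pLKO library that of Mndal in pLKO cells was 9.49.

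Part of the sequence of these genes is shared. Of the 31-base runs in their annotated transcripts, 29.4% in Ifi204, 20.7% in Ifi203 and 25.3% in Mndal also occurred in another family gene, against 0 in Aim2 and Ifi202b. Of the nonzero values, 41.1% were whole numbers (within 0.0015) in family genes and 86.4% in all genes. Values that are not whole can come from reads assigned in part to several genes, which was not traced here. How far shared sequence moved the level of single members was not tested.

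Pyhin1, whose human counterpart IFIX is a nuclear DNA-binding protein, had 0 and 2 counts in shDRG2 cells with IFN-γ and none without it. In pLKO cells it had 3 and 7 counts with IFN-γ and none without it. Both pLKO libraries with IFN-γ lay above both shDRG2 libraries with IFN-γ. In pLKO cells the level with IFN-γ was at least 3.61-fold higher than without, with the group at 0 set at 3 counts over both libraries. With IFN-γ, the ratio of shDRG2 to pLKO counts was 5.57-fold lower, with a counting interval of 1.19 to 52.2. Fitted with no filter on low counts, Pyhin1 was not called after IFN-γ in pLKO cells (adjusted p = 0.0571) or for shDRG2 against pLKO with IFN-γ (adjusted p = 0.720). Such floors take the count of the other group as exact, and the intervals cover counting error only. In Pyhin1, 46.8% of 31-base runs are shared with Ifi214, which had no row that could be matched.

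Aim2, the cytosolic DNA receptor of the inflammasome, had 0 and 1 counts in shDRG2 cells with IFN-γ and none without it, against 2 and 1 counts in pLKO cells with IFN-γ and 2 and 1 without it. Each of the 4 groups held 3 counts or fewer, so no fold is given. A group total of 0 allows up to 0.0517 CPM in shDRG2 cells without IFN-γ. Ifi202b, the inhibitor of AIM2, had 0 counts in all 8 libraries, which allows up to 0.0450 CPM in shDRG2 and 0.0501 CPM in pLKO cells with IFN-γ, and 0.0517 and 0.0464 CPM without it. At this depth neither gene showed a detectable response to IFN-γ.

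Without IFN-γ, the point estimates of the 3 tested members were lower in shDRG2 than in pLKO cells. None of the 3 was called, where 1.2% of all genes were called. The log2 fold change was -2.24 for Ifi203 (95% interval -4.13 to -0.34, adjusted p = 0.289), -1.49 for Mndal (-3.48 to 0.50, adjusted p = 0.558) and -0.93 for Ifi204 (-2.19 to 0.33, adjusted p = 0.568). These rest on 4 against 22 counts of Ifi203, 4 against 13 of Mndal and 14 against 30 of Ifi204 over each group. At an unadjusted p under 0.05, 1 of the 3, Ifi203, passed in edgeR, where 12.8% of all genes did, and DESeq2 with adjustment called 0. With no filter on low counts, Ifi203 was called at -2.23 (adjusted p = 0.0245). In bulk samples fewer cells with a transcript and less of it per cell cannot be told apart, and at a few reads per library that holds for every member here. The myeloid markers summed to 0.504 and 0.777 CPM in shDRG2 against 0.886 and 1.25 CPM in pLKO cells without IFN-γ. Of the 12, 6 were at 0 throughout, and the others did not move as a class. Cd68 had group means of 0.252 CPM in shDRG2 against 0.665 CPM in pLKO cells, and Spi1 and Mrc1 were also lower in shDRG2 cells. Csf1r (0.113 against 0.0462 CPM) and Lyz2 (0.229 against 0.217 CPM) were not lower. The part of these markers in the result was not tested.

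With IFN-γ, the 3 members differed little between the lines and 0 of 3 were called, where 1.67% of all genes were called. The log2 fold change of shDRG2 against pLKO was -0.24 for Ifi203 (95% interval -0.54 to 0.06, adjusted p = 0.556), -0.25 for Mndal (-0.55 to 0.05, adjusted p = 0.524) and 0.14 for Ifi204 (-0.15 to 0.43, adjusted p = 0.776). At an unadjusted p under 0.05, 0 of the 3 passed in edgeR, where 12% of all genes did, and DESeq2 called 0. The intervals reach -0.54 for Ifi203, -0.55 for Mndal and 0.43 for Ifi204, so the lines are not shown to be alike. Without the first shDRG2 library with IFN-γ, the value of Ifi204 was -0.071.

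The rise after IFN-γ was larger in shDRG2 than in pLKO cells in the point estimates of all 3 members, by 1.99 (95% interval 0.05 to 3.93) for Ifi203, 1.24 (-0.78 to 3.25) for Mndal and 1.07 (-0.22 to 2.37) for Ifi204 on the log2 scale. This difference between the responses was called for 0 of the 3, each with an adjusted p of 1.00, where 0.00741% of all genes, 1 gene, were called. At an unadjusted p under 0.05, 1 of the 3, Ifi203, passed in edgeR, where 2.38% of all genes did, and DESeq2 called 0. This difference and the comparison without IFN-γ share the unstimulated libraries.

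**Figure D2:**
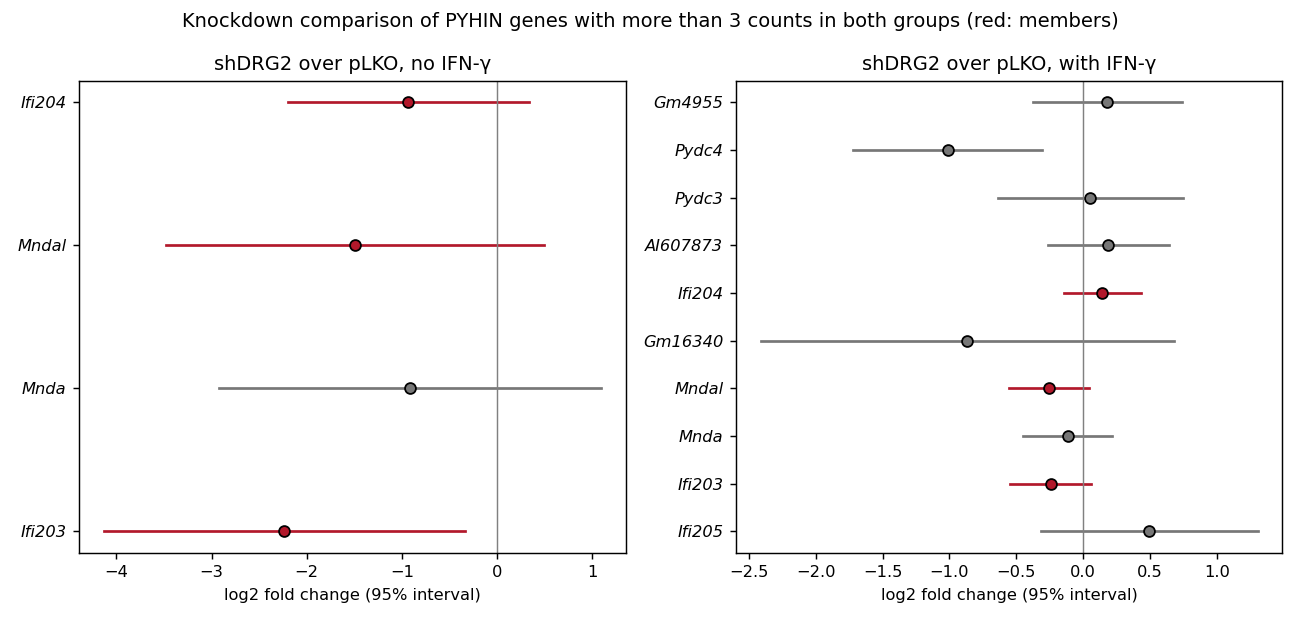
Log2 fold change of shDRG2 over pLKO with its 95% interval for the family genes with more than 3 counts in both groups, without IFN-γ on the left and with it on the right, members in red. Without IFN-γ the interval of Ifi203, -4.13 to -0.34, lies below 0 but the gene was not called after adjustment; with IFN-γ the intervals of the 3 members include 0.

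Summed over the 13 family genes, the locus had 917 and 697 CPM in shDRG2 cells with IFN-γ, against 0.560 and 0.581 CPM without it. The sum was 761 and 903 CPM in pLKO cells with IFN-γ, against 1.92 and 1.41 CPM without it. The ranges with IFN-γ overlapped between the lines, whose means were 807 ± 156 CPM in shDRG2 and 832 ± 100.4 CPM in pLKO cells (SD, n = 2 each). Without IFN-γ the shDRG2 sum was 2.92-fold lower than the pLKO sum, on 33 against 108 counts. The 6 members made up 64.5% and 66.5% of the sum in shDRG2 and 64.8% and 66.0% in pLKO libraries with IFN-γ. Ifi204 alone made up 35.7% to 35.9% of the sum in shDRG2 and 30.2% to 32.9% in pLKO cells, Ifi203 19.7% to 20.9% and 21.6% to 24.5%, and Mndal 9.003% to 9.97% and 10.4% to 11.3%. In these shares the 2 lines did not overlap, with Ifi204 higher and Ifi203 and Mndal lower in shDRG2 cells. Shares of 1 sum depend on each other, so these are not separate observations, and the shares were not tested. How many of all genes fail to overlap at 2 against 2 libraries was not counted. In CPM with IFN-γ the lines overlapped for each of these 3 genes.

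Levels were also divided by kilobases of annotated exon, the union over all annotated transcripts, which need not be the length expressed. This union was 6706 bases in Ifi203 over 9 transcripts and 1785 bases in Mnda over 1. On that scale, Ifi204 had 81.1 ± 15.9 CPM per kb in shDRG2 and 73.4 ± 4.51 CPM per kb in pLKO cells with IFN-γ. Ifi203 had 24.3 ± 3.68 and 28.7 ± 5.99 CPM per kb, and Mndal had 20.9 ± 2.55 and 24.9 ± 4.51 CPM per kb (SD, n = 2 each). Among the members the order was Ifi204, Ifi203, Mndal, Pyhin1, Aim2 and Ifi202b in both lines, and the ranges of Ifi203 and Mndal overlapped in each line. Of all 13 genes, only Mnda stood above Ifi204, at 106 ± 16.5 CPM per kb in shDRG2 and 115 ± 10.01 CPM per kb in pLKO cells. In CPM not divided by length, Ifi204 was above Mnda, at means of 289 against 190 in shDRG2 and 261 against 205 in pLKO cells. In Mnda 78.9% of 31-base runs occur in other family genes, and 38.6% occur in Ifi204; whether this bears on the order of these 2 genes was not tested. The map of the locus shows that the 4 highest genes in CPM, Ifi204, Mnda, Ifi203 and Mndal, lie in its distal portion and that Aim2, Pyhin1 and Ifi202b, near 0, stand between induced genes or at the edge.

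**Figure D3:**
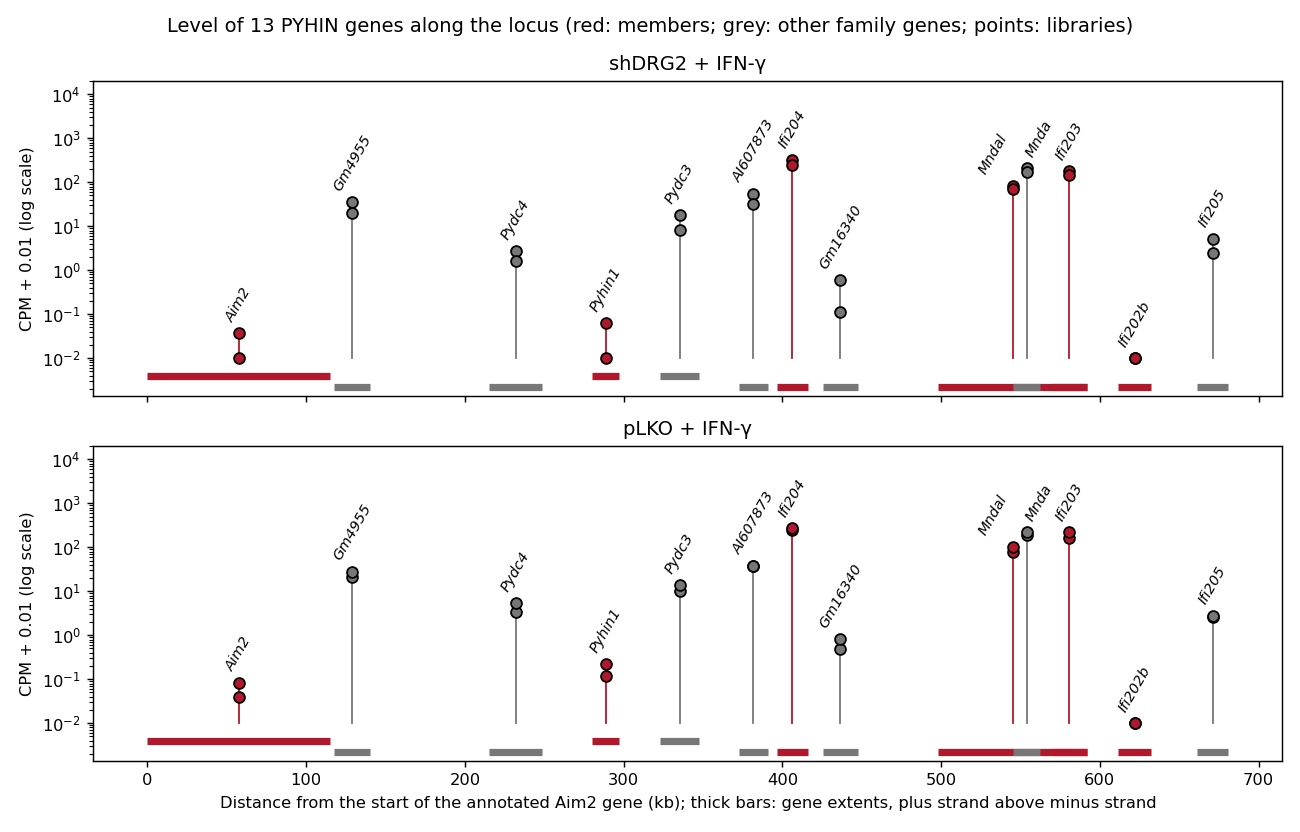
Level of the 13 family genes in cells with IFN-γ (CPM plus 0.01, log axis, 1 point per library) by distance from the start of Aim2 in kb, with shDRG2 above and pLKO below and bars for the gene extents. Members are red; Ifi204, Mnda, Ifi203 and Mndal are the 4 highest in both lines, and Aim2, Pyhin1 and Ifi202b the 3 lowest.

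The replicates of a group shifted together over the locus. In shDRG2 cells with IFN-γ, replicate 1 was above replicate 2 in all 9 family genes whose replicates summed to more than 2 CPM, by 1.19-fold to 2.17-fold. In pLKO cells with IFN-γ, replicate 2 was above replicate 1 in the same 9 genes, by 1.02-fold to 1.54-fold. Over all genes with a mean above 1 CPM, the median fold between those replicates in either direction was 1.08 in shDRG2 and 1.09 in pLKO cells, with a 95th percentile of 1.38 and 1.44. How many of all genes were higher in the same replicate was not counted. In shDRG2 cells with IFN-γ, replicate 1 was also above replicate 2 in Zbp1 (552 against 478 CPM) and Samhd1 (580 against 499 CPM). The reverse held for Mb21d1 (21.1 against 24.1 CPM). The shift is thus not shown to be particular to the locus, and the part of sequence shared between family genes in it was not tested.

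All 7 family genes beyond the members were called higher after IFN-γ in both lines, where 16.2% of all genes were in shDRG2 and 15.4% in pLKO cells. Of the 7, 6 passed the filter only through their level with IFN-γ, and Pydc4 also passed through the 2 pLKO libraries without it, so this count is a description too. Their median log2 fold change was 9.89 in shDRG2 and 9.31 in pLKO cells, or 9.23 and 9.05 with genes at 0 without IFN-γ set at their lower bound. Mnda, the present-day Ifi211, had 210.4 and 169 CPM in shDRG2 and 193 and 218 CPM in pLKO cells with IFN-γ, with 7 and 15 counts without it, and AI607873 (Ifi207) had 54.1 and 31.8 CPM and 37.3 and 38.0 CPM, with 1 count in each line without it. Gm4955 (Ifi206) had 35.2 and 19.96 CPM in shDRG2 and 20.6 and 27.8 CPM in pLKO cells, where it was at least 530.1-fold higher than without IFN-γ. Pydc3 (Ifi208), Ifi205, Pydc4 (Ifi213) and the pseudogene Gm16340 (Ifi203-ps) lay lower, between 0.0999 and 17.6 CPM in shDRG2 and between 0.482 and 14.2 CPM in pLKO cells with IFN-γ. The call of Gm16340 in shDRG2 cells ended without the second shDRG2 library with IFN-γ and without either unstimulated shDRG2 library, the highest adjusted p being 0.144.

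Of the family genes that passed the filter, Pydc4 had the lowest log2 fold change between the lines in both states. Without IFN-γ it had 1 and 0 counts in shDRG2 cells against 11 and 11 in pLKO cells, a count ratio 19.7-fold lower with a counting interval of 3.19 to 813 (adjusted p = 0.0785). With IFN-γ it had 2.70 and 1.64 CPM in shDRG2 cells against 3.41 and 5.27 CPM in pLKO cells (log2 fold change -1.01, SE 0.318, adjusted p = 0.187). The groups did not overlap in either state and neither difference was called, although with no filter on low counts the one with IFN-γ was (adjusted p = 0.00931). None of the 7 was called between the lines in either state in edgeR; at an unadjusted p under 0.05, 1 passed in each state, beside 12.8% of all genes without IFN-γ and 12% with it, and DESeq2 called 0.

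The adaptor gene of the AIM2 inflammasome was nearly absent in shDRG2 cells. Pycard (chromosome 7, ENSMUSG00000030793.4), which encodes the adaptor ASC, had 1 and 1 counts in shDRG2 cells with IFN-γ and 0 and 0 without it. In pLKO cells it had 339 and 424 counts with IFN-γ and 113 and 100 without it. It was 425-fold lower in shDRG2 cells with IFN-γ by summed counts, with a counting interval of 117 to 3513 (adjusted p = 3.91e-06), and at least 63.6-fold lower without it (adjusted p = 7.38e-05). In pLKO cells Pycard rose after IFN-γ by 1.95 ± 0.169 log2 units (± SE, adjusted p = 2.73e-05). Casp1, the caspase of the inflammasome, had 1 and 2 counts in shDRG2 and 1 and 1 counts in pLKO cells with IFN-γ and none without it.

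Of the 11 genes listed with the AIM2 inflammasome, 6 were tested, and 4 rose after IFN-γ in shDRG2 and 5 in pLKO cells. Of all genes, 16.2% and 15.4% rose. Casp4 and Zbp1 passed the filter on low counts only through their level with IFN-γ, so these counts are a description. Between the lines, Pycard was the 1 gene of the list called in edgeR, lower with and without IFN-γ. Of all genes, 1.67% were called between the lines with IFN-γ and 1.2% without it. DESeq2 also called Gsdmd with IFN-γ, which edgeR gave as 0.46 higher in shDRG2 cells (adjusted p = 0.0760). The list's median log2 fold change after IFN-γ was 4.23 in shDRG2 and 3.94 in pLKO cells, or 3.38 and 3.79 with genes at 0 at their bound. Zbp1, a sensor of Z-form nucleic acid, rose by 11.51 and 11.19 on the log2 scale, and Gsdmd, the pore former of pyroptosis, by 5.38 and 5.07, in shDRG2 and pLKO cells. Il18, an inflammasome substrate, rose by 2.77 and 2.80. Casp4, the caspase of the non-canonical inflammasome, was at least 12.8-fold higher in shDRG2 and at least 27.4-fold higher in pLKO cells. Il1b, Nlrp3 and Mefv had no count in any library. The plot of inflammasome genes by library sets Aim2 and Casp1, near 0 in all 4 groups, beside Pycard, absent or nearly so in shDRG2 cells.

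**Figure D4:**
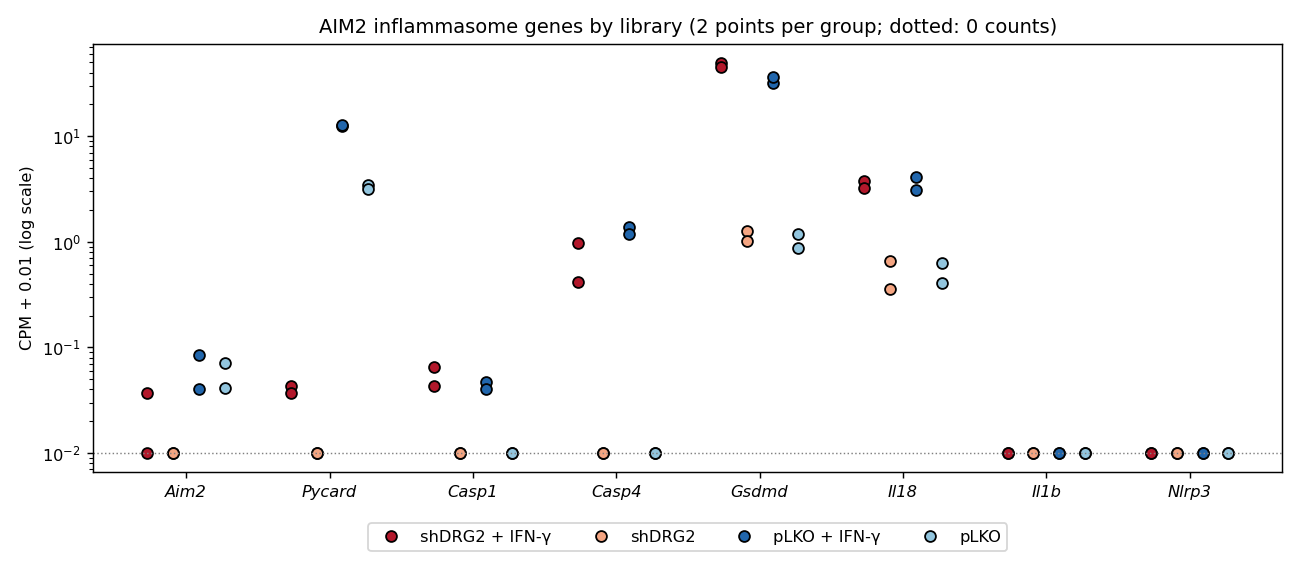
Level of Aim2 and of 7 genes listed with its inflammasome in the 8 libraries (CPM plus 0.01, log axis, 2 points per group, dotted line at 0 counts). Pycard stands at 12.6 and 12.9 CPM in pLKO cells with IFN-γ and at 0.0333 CPM or less in all shDRG2 libraries, while Gsdmd and Il18 were called higher after IFN-γ in both lines.

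IFI204 signals to STING, and 16 of the 17 genes listed for the cGAS-STING pathway were tested. None was called between the lines with or without IFN-γ in edgeR or DESeq2, and 4 without it and 1 with it had an unadjusted p under 0.05. Of all genes, 1.2% and 1.67% were called in edgeR and 12.8% and 12% had an unadjusted p under 0.05, and nothing is read from the count. After IFN-γ, where 16.2% of all genes rose in shDRG2 and 15.4% in pLKO cells, 5 rose and 2 fell in shDRG2 cells, and 6 rose and none fell in pLKO cells, with list medians of 0.12 and 0.15 on the log2 scale. Samhd1, which degrades dNTPs, rose by 2.92 in shDRG2 and 2.74 in pLKO cells, and Tmem173, which encodes STING, by 1.49 in both. Trex1, a cytosolic DNA exonuclease, rose by 0.86 and 0.87, and the kinases Tbk1 and Ikbke rose by 0.73 and 0.65 in shDRG2 and by 0.62 and 0.65 in pLKO cells. Mb21d1, which encodes cGAS, gave 0.27 in shDRG2 cells (adjusted p = 0.0678) and rose by 0.32 in pLKO cells (adjusted p = 0.0384), a call that ended under several alternatives, with an adjusted p of up to 0.181. Enpp1, which hydrolyses cGAMP, fell by 1.24 and Rnaseh2c, a subunit of RNase H2, fell by 0.33 in shDRG2 cells; both calls ended without the first shDRG2 library with IFN-γ and without the second unstimulated one, with adjusted p up to 0.0633 and 0.127.

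All 10 transcription factors listed for interferon responses were tested and rose after IFN-γ in both lines, beside 16.2% of all genes in shDRG2 and 15.4% in pLKO cells. Irf5, Irf8 and Batf2 passed the filter on low counts only through their level with IFN-γ, so this count is a description. The list's median log2 fold change was 5.43 in shDRG2 and 4.91 in pLKO cells, or 4.49 in shDRG2 cells with Irf7 at its bound. Irf1, which binds ISREs, rose by 5.87 in shDRG2 and 5.66 in pLKO cells. Irf8 and Batf2, both at 10 counts or fewer per group without IFN-γ, reached 213 to 214 and 87.5 to 90.5 CPM in shDRG2 and 197 to 235 and 94.0 to 98.1 CPM in pLKO cells. Stat2 rose by 3.99 and 3.86, Stat3 by 2.36 and 2.46, Irf9 by 2.01 and 2.00, and Irf2 by 1.47 and 1.37. Irf5 had 84 and 65 counts with IFN-γ and 1 count per line without it. Irf7 (chromosome 7, ENSMUSG00000025498.15), an ISRE-binding factor of the type I response, was the exception between the lines. It had 0.633 and 0.547 CPM in shDRG2 against 16.1 and 17.8 CPM in pLKO cells with IFN-γ (-4.84, adjusted p = 7.43e-06), and it was at least 10.5-fold lower in shDRG2 cells without it, with 0 against 35 counts (adjusted p = 0.00437). That second call ended without the first unstimulated shDRG2 library (adjusted p = 0.0534). The other 9 factors were not called between the lines, where 1.2% of all genes were called without IFN-γ and 1.67% with it.

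Among 17 genes flanking the locus on chromosome 1, 6 were tested. Between the lines, 0 of the 6 were called without IFN-γ and 3 with it, where 1.2% and 1.67% of all genes were called. With so few genes these counts are a description. Slamf8, a SLAM family receptor 760.3 kb before the locus, was at least 668-fold higher after IFN-γ in shDRG2 cells and had 19.1 and 20.5 CPM in pLKO cells, against 1 count over both libraries without it. With IFN-γ, Slamf8 was higher in shDRG2 than in pLKO cells, by 0.81 on the log2 scale (adjusted p = 0.0142). Cadm3, whose extent overlaps that of Aim2, had 0 counts in shDRG2 cells against 31 in pLKO cells with IFN-γ and 0 against 28 without it, and the first was called (adjusted p = 0.0283) while the second was not (adjusted p = 0.0502). The second was called with RLE scaling (adjusted p = 0.0493), with no filter (0.000119), in DESeq2 (0.0364) and, at 0.0451, without the first pLKO library with IFN-γ. The call of Slamf8 ended without the first pLKO library with IFN-γ and without either shDRG2 library with IFN-γ (adjusted p up to 0.158). The call of Cadm3 ended without either shDRG2 library with IFN-γ, the second pLKO library with IFN-γ or either unstimulated pLKO library (up to 0.168). Tagln2 rose after IFN-γ in shDRG2 cells by 1.02, and Igsf8 rose in pLKO cells by 0.40; the call of Tagln2 ended without the second shDRG2 library with IFN-γ and without either unstimulated shDRG2 library, with an adjusted p of up to 0.0655.

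Likeness of pattern was measured as the Euclidean distance between centred profiles of log2(CPM + 1) over the 8 libraries, where 0 means identical profiles. The genes closest to Ifi204 were Psmb8 at 0.251, Gm4841 at 0.427 and Psmb9 at 0.473; Psmb8 and Psmb9 encode subunits of the immunoproteasome. The closest to Ifi203 were Mnda at 0.480, Psmb9 at 0.576 and Gbp7, a guanylate-binding protein, at 0.597. The closest to Mndal were Sp110 at 0.377, Batf2 at 0.453 and Parp14 at 0.460. These points share 8 libraries that fall into 2 clusters by IFN-γ, so the distance mainly ranks genes by the size of their rise.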

How the data were processed

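RNA sequencing of 8 libraries in 4 groups was used. The authors deposited unscaled estimated counts per gene. STAR, Salmon 1.5.2 and mm10 are named, per the submitters' processing notes, with no role or order; strandedness is not given in the sources used here. Per the labels' protocols, libraries were made from total RNA with an Illumina kit and read in pairs, and several instruments and read lengths are named with no library assigned to any.

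Of 45583 entries, 27 carry gene names turned into dates (0.204% to 0.212% of a library's counts) and were left out. After rounding of the estimated counts, edgeR 4.0.16 was run under R 4.3.3. The filterByExpr filter left 13500 genes, TMM factors ran from 0.973 to 1.04, and a quasi-likelihood model with 1 coefficient per group and no block was fitted to all 8 libraries (4 residual degrees of freedom, prior 6.10). F tests were two-sided, and p-values were adjusted by Benjamini and Hochberg's method across all 13500 genes, with a threshold of 0.05. Fold changes are shDRG2 over pLKO or IFN-γ over none; SE is the standard error on the log2 scale. CPM are rounded counts over TMM-scaled totals. A group at 0 was set at 3 counts, and with 1 to 3 counts a ratio with its exact 95% interval is given. Depth was 25422758 to 36654519 counts per library, and replicates spread 11.9 to 16.0 times more than counting noise (chi-square over degrees of freedom). The procedure was also run on simulated data with smaller folds than those of the members after IFN-γ. That run does not bear on the members' folds.

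Gene names were matched by symbol or RefSeq synonym; Ifi214 and Ifi202c could not be matched. The members and gene lists were chosen with earlier results of these data known. Named genes are the 6 members, the other family genes, listed genes called in any comparison or central to their pathway, and the 3 genes nearest each tested member; some genes of the lists are not reported here. The 14 alternatives were other scalings (RLE, upper quartile, library size only), no filter, DESeq2 1.42.0, a replicate block, and leaving out each of the 8 libraries.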

Additional observations from a re-analysis of the deposited data

How the results depend on the processing

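The calls of Ifi203, Ifi204 and Mndal after IFN-γ held under all 14 alternatives in both lines. The log2 fold change of Ifi203 ran from 10.96 to 11.28 in shDRG2 and from 8.90 to 9.34 in pLKO cells. With no filter on low counts, 1 member, Ifi203, was called for shDRG2 against pLKO without IFN-γ, and its adjusted p ran from 0.0245 to 0.727. In the other knockdown comparison and the difference between responses, 0 members were called under every alternative.

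Some uncalled values of family genes changed sign between the lines when single libraries were left out. With IFN-γ, the log2 fold change then ran from -0.071 to 0.33 for Ifi204, -0.24 to 0.52 for AI607873, -0.28 to 0.54 for Gm4955, -0.12 to 0.93 for Ifi205, -0.60 to 0.51 for Pydc3 and -0.28 to 0.034 for Mnda. For Mnda it ran from -1.83 to 0.90 without IFN-γ and from -1.01 to 1.72 for the difference between responses. Without the first pLKO library with IFN-γ, Gm4955 gave -0.017 and Pydc3 -0.15. The cause was not tested.

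With the replicate number as a block, Pydc3 gave -0.018 between the lines with IFN-γ, and no call of a member changed. Of the other genes named, Mb21d1 was called after IFN-γ in shDRG2 cells under the block (0.27, adjusted p = 0.0186), and Cadm3 between the lines without IFN-γ (adjusted p = 0.0181). Same-numbered libraries deviated together (correlations of 0.137 to 0.472 over pairs of groups), but the labels do not say what the numbers pair. Between the lines, the block called 673 genes without IFN-γ and 675 with it, against 162 and 226. Without a filter 678 and 653 were called, and DESeq2 called 302 without IFN-γ. For the difference between responses, 1 gene became 58 with no filter, 7 with DESeq2 and 2 with the block. Leaving out single libraries gave as few as 27 genes without IFN-γ, 44 with it, 2720 of 4233 after IFN-γ in shDRG2 cells and 2482 of 3796 in pLKO cells. Depth limits what can be said of Pyhin1, Aim2 and Ifi202b, and of every member without IFN-γ.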
